A study of Rattus norvegicus with 12 samples.

Results

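Early injury in the carbon tetrachloride model of liver cirrhosis was examined by setting rat liver at 3 weeks against normal liver. The members were the 3 arrays of the 3-week group and the 3 arrays labelled 0h, which are 6 of the 12 arrays of the series, read at every probe set to which the deposited file gives a gene symbol (19914 of 31099). The 3-week liver came from Sprague-Dawley rats that had received carbon tetrachloride for 3 weeks. The 0h liver was normal liver of the same strain, and 12 weeks is the age the labels give for every group. All tissue came from the middle of the right liver lobe. The dose, route, vehicle, sex and number of animals are not given in the sources used here, and the samples hold no vehicle-treated or time-matched liver, so that the treatment cannot be told apart from time or handling. Per the labels, each group's 3 arrays are technical replicates, and p-values therefore measure the spread between arrays, which may come from a single RNA pool. The other 6 arrays, of 6 and 9 weeks of the same model, entered the estimate of the spread and 1 comparison.

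Carbon tetrachloride is a solvent that Cyp2e1, a P450 enzyme of the hepatocytes around the central vein, turns into a reactive radical. The radical oxidises membrane lipids and kills these hepatocytes, resident macrophages (Kupffer cells) and incoming leukocytes clear them, and stellate cells turn into myofibroblasts that lay down fibrillar collagen under the influence of transforming growth factor beta. The liver is also the main site of cholesterol and bile acid synthesis, whose genes answer to the transcription factor SREBP2 and to bile acid receptors, and of drug metabolism and plasma protein secretion.

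The signals carry the authors' scaling, and since arrays hold no counts, precision is limited by how many arrays there are. After trimming 2% from each end, each array had a mean signal of 500.2, and array medians ran from 7.09 to 7.31 as log2(signal + 16), the scale of all differences below. Genes were represented by their brightest probe set, and 10321 passed a filter at a signal of 75.3. The filter takes the mean log2 signal over all 12 arrays, so that a gene high at 1 time alone could fail it; values of such genes are given without a test. A gene is said to have risen or fallen at 3 weeks when the change reached 2-fold and the limma p stayed under 0.05 after Benjamini-Hochberg adjustment over the 10321 genes, and ± is an SD over 3 arrays for a signal and an SE for a log2 difference. Arrays within a group correlated at r = 0.967 to 0.973 across probe sets, against 0.950 to 0.954 between 3 weeks and 0h. The tissue label was checked against 5 hepatocyte markers, all of them bright in both groups: Alb gave a signal of 39383 ± 1795 at 3 weeks and 40836 ± 3879 at 0h, Ttr 36908 ± 2883 at 3 weeks and 35254 ± 2489 at 0h, and Apoa1, the lowest of them, 16820 ± 367 at 3 weeks and 21476 ± 842 at 0h. Where leaving out 1 array, quantile normalization or median centring took a gene called in a list below 2-fold, the difference obtained that way is given beside it. In bulk tissue, fewer cells of a type and less RNA per cell cannot be told apart.

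At 3 weeks 301 genes had risen (2.92% of those tested) and 132 had fallen (1.28%), together 4.2%, and the median difference over all genes was 0.01. Genes of fibrillar collagen, proteoglycans, MHC class II molecules and some acute phase proteins were among the rises, while genes of cholesterol and bile acid synthesis were among the falls. After median centring of the arrays, where the median of all genes lay at -0.09, 231 rose and 173 fell, so that rises made up 57.2% of calls there, against 69.5% on the authors' scale. A change of 4-fold or more was seen in 28 of the rises and 24 of the falls. Of the rises, 80 started from a 0h mean under the filter signal of 75.3, where the added 16 understates the fold. Of the falls, 18 ended under it at 3 weeks. The 3 arrays of each group did not overlap in 422 of the 433 called genes, against 49.7% of all genes tested, and in the authors' deposited table of log2 ratios all 9 ratios of a gene had the same sign for 411 of them.

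**Figure D1:**
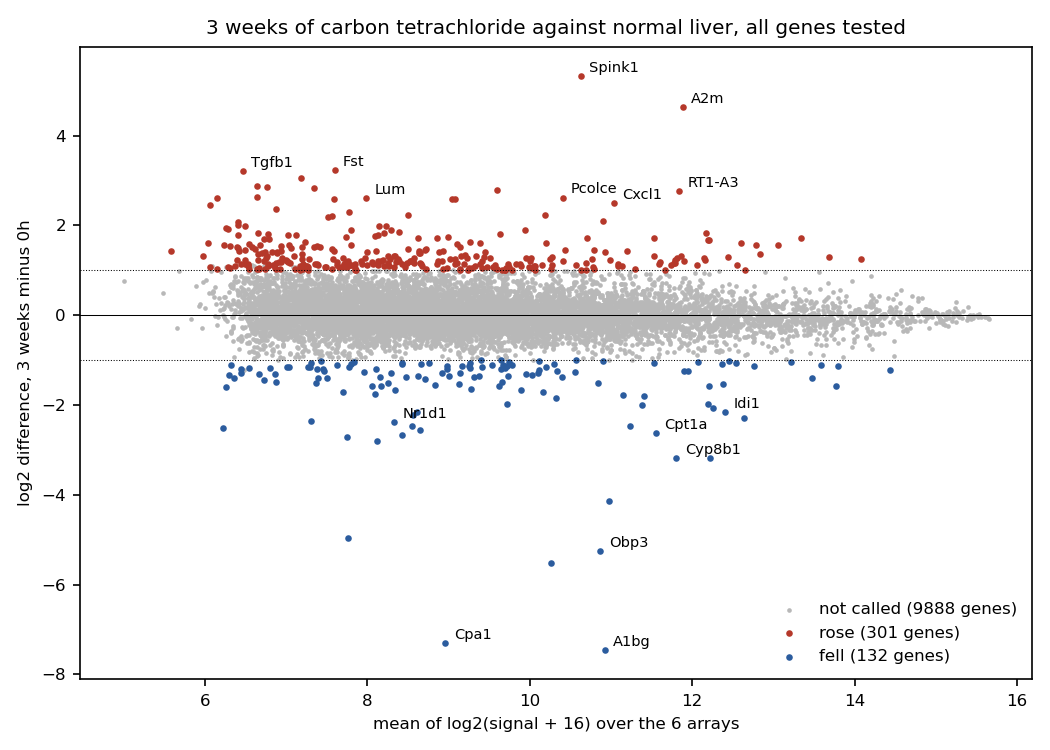
Difference between 3 weeks and 0h (log2, vertical axis) against the mean log2(signal + 16) over the 6 arrays (horizontal axis) for the 10321 genes tested, with 301 rises in red and 132 falls in blue; the dotted lines mark 2-fold. Spink1 and A2m stand above all other rises, and A1bg and Cpa1 below all other falls.

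The rise of greatest size was that of Spink1, a secreted inhibitor of trypsin. Its signal was 9817, 10668 and 9737 on the 3-week arrays, against 177, 250.3 and 287 on the 0h arrays. Every 3-week array was far above every 0h array, and the gene rose by 5.34 ± 0.11 (limma adjusted p = 9.99e-16), although its 3 probe sets ranged between 1.14 and 5.34. A2m, alpha-2-macroglobulin, a protease inhibitor and an acute phase protein of the rat, had 18442, 20020.1 and 18134 at 3 weeks and 760.1, 744 and 714 at 0h. Again the groups were far apart, with a rise of 4.64 ± 0.09 (limma adjusted p = 5.34e-16). Fst, follistatin, a secreted antagonist of activin, had 613, 610.4 and 514 at 3 weeks and 86.4, 21.6 and 49.0 at 0h, and rose by 3.23 ± 0.28. Tgfb1, transforming growth factor beta 1, the leading profibrotic growth factor, had 272, 222 and 269 at 3 weeks and 11.8, 8.10 and 20.9 at 0h, and rose by 3.21 ± 0.20 (limma adjusted p = 2.13e-09). For both Fst and Tgfb1 the 0h arrays lay near the bottom of the scale, so the size of the change is less certain than its direction.

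Other large rises came from genes of different kinds. Rgs4, which shortens G protein signals, had 437, 326 and 464 at 3 weeks and 8.90, 35.9 and 83.6 at 0h, with a rise of 3.06 ± 0.34. Abcc3, which pumps conjugated bile acids and drugs from the hepatocyte back to blood, had 229, 221 and 321 at 3 weeks and 7.70, 19.0 and 43.3 at 0h, with a rise of 2.88 ± 0.24. Chpf, a polymerising factor of chondroitin sulfate chains, rose by 2.85 ± 0.19, while Fabp4, a lipid chaperone found in adipocytes, macrophages and capillary endothelium, rose by 2.83 ± 0.35. In each of these 4 genes the 0h mean was under the filter signal. Brighter genes were among the 15 largest rises too: Ccl21, a chemokine that guides T cells and dendritic cells, had 1942, 2065 and 2042 at 3 weeks and 306, 305 and 230.2 at 0h, and rose by 2.79 ± 0.11. RT1-A3, a classical MHC class I gene, had a mean of 9527 ± 396 at 3 weeks and 1387 ± 47.3 at 0h and rose by 2.77 ± 0.05, but its 3 probe sets ran between -0.13 and 2.77, and MHC class I genes are near-identical copies, so the gene behind the signal is uncertain. Bcl6, a transcriptional repressor, rose by 2.59 ± 0.15. Alpl, the tissue-nonspecific alkaline phosphatase, rose by 2.64 ± 0.28, and Sult2b1, a sulfotransferase of cholesterol, by 2.61 ± 0.23. These last 2 genes were dim, with 0h means of 28.8 for Alpl and 12.8 for Sult2b1, under the filter signal, so their size of change is uncertain too.

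The largest falls were of greater size than the largest rises; genes with a locus identifier alone are left unnamed. A1bg, a plasma glycoprotein made by the liver, had 118, 117 and 159 at 3 weeks and 26293, 26975 and 24289 at 0h. A signal that was among the brightest on the 0h arrays was thus close to the filter level at 3 weeks, and the gene fell by 7.47 ± 0.11 (limma adjusted p = 2.60e-17). Cpa1, pancreatic carboxypeptidase A1, had 8.30, 56.4 and 19.2 at 3 weeks and 6212, 6538 and 6044 at 0h, and fell by 7.31 ± 0.35. Obp3, one of the alpha-2u globulins, major urinary proteins that the male rat liver secretes, had 243, 359 and 268 at 3 weeks and 11655, 10825 and 12216 at 0h, and fell by 5.26 ± 0.15. The alpha-2u globulins are near-identical, so the gene behind this probe set is uncertain. In these 3 genes no 3-week array reached the lowest 0h array.

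Metabolic enzymes and carriers made up much of the next tier of falls. Akr1b7, an aldo-keto reductase, had 1532, 1564 and 1574 at 3 weeks and 14436, 14806 and 13815 at 0h, and fell by 3.19 ± 0.06. Mlc1, a membrane protein best known from astrocytes, fell by 2.80 ± 0.23. Lifr, the receptor for leukaemia inhibitory factor, fell by 2.71 ± 0.36. Mlc1 averaged 89.2 at 3 weeks and 719 at 0h, and Lifr 68.8 at 3 weeks and 539 at 0h, so both were dim at 3 weeks. Serpinb9b, a serpin, fell by 2.56 ± 0.16, IgG-2a, an immunoglobulin heavy chain, by 2.47 ± 0.07, Nfe2, a transcription factor of blood cells, fell by 2.46 ± 0.18, and Nr1d1, the clock repressor Rev-erb alpha, by 2.38 ± 0.18. Of the 15 largest falls, 4 more, Cyp8b1, Abcg5, Abcg8 and Cpt1a, belong to sterol, bile acid and fatty acid metabolism and are described with those genes.

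**Figure D2:**
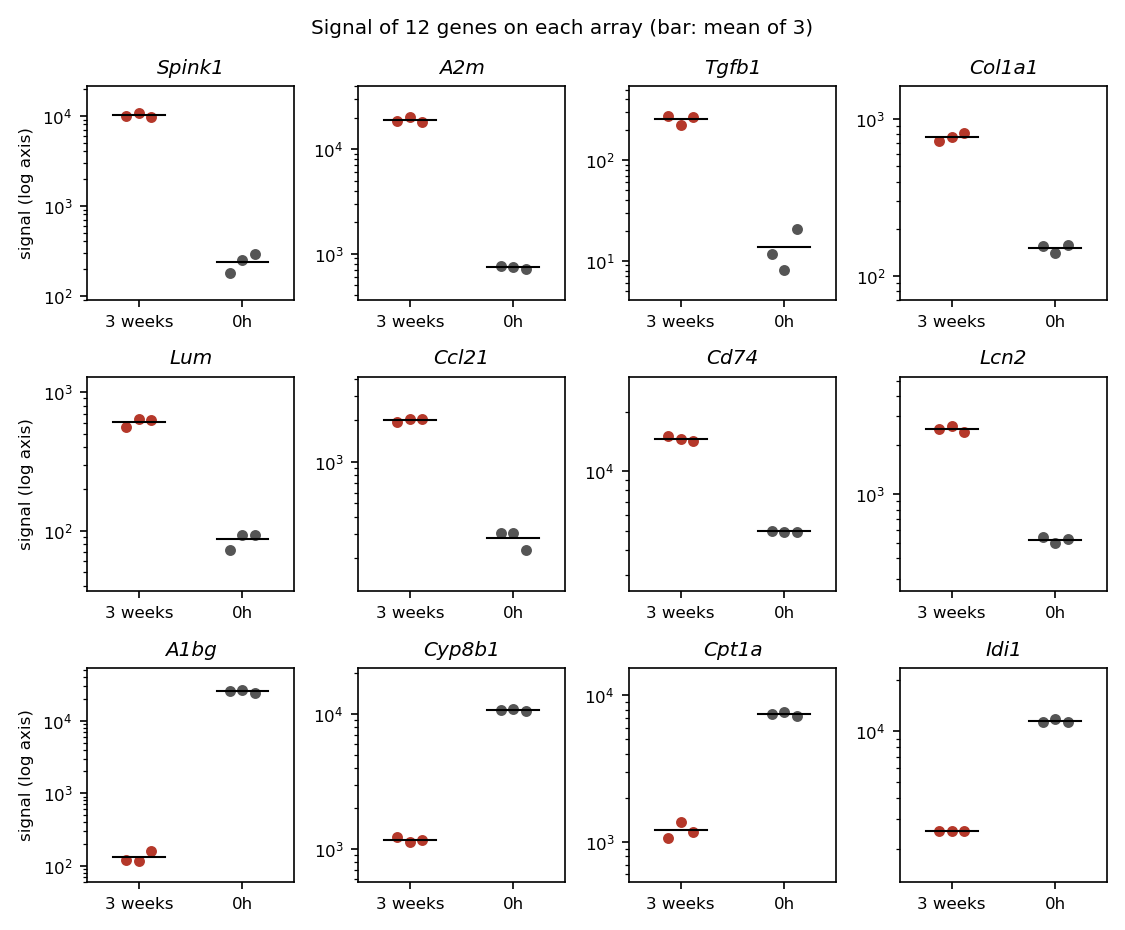
Signal of 12 genes (vertical log axes, each with its own range) on each of the 3 arrays at 3 weeks (left, red) and at 0h (right, grey); the bar is the mean of 3. In all 12 genes the groups are separate: the 3-week arrays of Spink1, A2m, Tgfb1, Col1a1, Lum, Ccl21, Cd74 and Lcn2 lie above the 0h arrays, and those of A1bg, Cyp8b1, Cpt1a and Idi1 below them.

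Fibrillar collagen genes rose together at 3 weeks. Fibrillar collagens are the rods of scar tissue, and all 6 of the 6 that passed the filter rose, with a median difference of 1.53; the other 3 of the 9 on the array, Col2a1, Col5a3 and Col11a1, were too dim to test. Col1a1, a chain of type I collagen, had 727, 773 and 814 at 3 weeks and 155, 139.9 and 158 at 0h, and rose by 2.24 ± 0.12 (limma adjusted p = 4.81e-10). Col3a1, type III collagen and the brightest of the group, had 10254, 10995 and 11227 at 3 weeks and 3492, 3604 and 3507 at 0h, and rose by 1.61 ± 0.05. No array of either gene crossed into the other group. Col1a2, the second chain of type I, rose by 1.31, Col5a1 and Col5a2, of type V collagen, which starts fibril assembly, by 1.44 and 1.24, and Col27a1 by 1.90. Of 7 collagens of other kinds (VI, VIII, XII, XIV and XVI), only Col6a2, of microfibrillar type VI, rose, by 1.08, and this call ended with median centring, at 0.98; Col6a3 differed by 0.91 and Col14a1 by 0.56.

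Proteins that build, fold and crosslink the fibres moved with the collagens in part. Of the 7 small leucine-rich proteoglycans tested, which sit on collagen fibrils and set their spacing, 3 rose. Lum, lumican, had 561, 643 and 629 at 3 weeks and 73.0, 92.5 and 93.9 at 0h, and rose by 2.62 ± 0.21. Dcn, decorin, which also binds transforming growth factor beta, had 1988, 1938 and 1714 at 3 weeks and 527, 439.7 and 517 at 0h, and rose by 1.89 ± 0.07. Neither gene had overlapping groups. Aspn, asporin, rose by 1.25, a difference of 0.96 without 0h array 1, while Ogn, osteoglycin, differed by 0.78 and Bgn, biglycan, by 0.22. Of 12 collagen folding and processing enzymes, 3 rose. Pcolce, which speeds the trimming of procollagen, had 3265, 3743 and 3058 at 3 weeks and 595, 486 and 516 at 0h, and rose by 2.62 ± 0.09. Serpinh1, the collagen chaperone HSP47, rose by 1.11, and Plod2, a lysyl hydroxylase, by 1.04, which was 0.97 without 3-week array 3 and 0.93 without 0h array 2, 0.99 after quantile normalization and 0.945 after median centring. Fkbp10, a collagen chaperone below the filter, had 104, 133 and 109 at 3 weeks and 46.3, 49.2 and 37.8 at 0h. The prolyl hydroxylase P4ha1 differed by 0.84, whereas its partner P4hb, an abundant enzyme of the endoplasmic reticulum, differed by 0.09.

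Crosslinking and elastic fibre genes went both ways. Of 11 tested, 4 rose and 1 fell. Efemp2, fibulin-4, rose by 2.18 ± 0.21, Loxl2 by 1.15, Mfap4 by 1.16, and Loxl1 by 1.31. Loxl1 rested on dim signals, and without 3-week array 1 it differed by 0.96 (limma adjusted p = 0.0608). Lox, lysyl oxidase itself, had 141, 169.7 and 189.6 at 3 weeks and 540.2, 480.1 and 689.6 at 0h, and fell by 1.68 ± 0.16, so the founding member of the family moved against 2 of its relatives. In the basement membrane list, 4 of 14 genes rose and 1 fell: Col4a5 by 1.51, Lama5, a laminin chain that was dim on all arrays, by 1.43, Nid1, nidogen, by 1.26, and Col4a1, of type IV collagen, by 1.01, while Lama2 fell by 1.3. Col4a1 lay at the 2-fold limit, at 0.92 without 3-week array 2, 0.997 without 0h array 1 and 0.98 without 0h array 3, and at 0.91 after median centring. The second probe set of Nid1 went the other way, at -0.63, and the mean of its probe sets differed by 0.32.

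Growth factors and stellate cell markers showed a few calls each. Of 24 ligands, inhibitors, receptors and mediators of the transforming growth factor beta and activin family, only Tgfb1 and Fst, given above, rose and none fell. Inhba, the activin A subunit that follistatin binds, had a mean of 382 ± 12.8 at 3 weeks and 187 ± 35.8 at 0h, a difference of 0.98 that stayed just short of 2-fold. Tgfb2 differed by -0.57, Tgfb3 by 0.20, the receptors Tgfbr1 and Tgfbr2 by 0.21 and 0.01, and Ccn2, a classic downstream gene, by 0.36. Among 19 stellate cell and myofibroblast markers, with a median difference of 0.54, Acta2, smooth muscle actin, the hallmark of the myofibroblast, had 290.4, 341 and 298 at 3 weeks and 190, 143 and 115 at 0h, and rose by 1.003 ± 0.24. The call lay at the limit: the difference was 0.94 without 3-week array 2, 0.99 without 0h array 2 and 0.85 without 0h array 3, 0.94 after quantile normalization and 0.90 after median centring. Pdgfrb, the receptor for platelet-derived growth factor, differed by 0.89, Vim by 0.80 and Des, desmin, by 0.54. The list also held 1 fall, and the summed signal of all 23 markers on the array was 14077 to 14522 on the 3-week arrays against 14929.7 to 15237 on the 0h arrays. Of these 23, Cnn1, Actg2, Thy1 and Ngfr failed the filter. Ngfr had 78.0, 92.3 and 83.1 at 3 weeks and 42.8, 30.4 and 3.40 at 0h, and Actg2 and Thy1 were also higher on every 3-week array. Cnn1 went the other way, with 27.6, 99.4 and 70 at 3 weeks and 117.8, 112.8 and 91.2 at 0h, which overlapped. The part of cell numbers in the collagen rises was not tested.

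The lists of matrix-degrading enzymes and of matrix glycoproteins held 1 rise each, where 2.92% of all genes tested rose. Of 11 proteases and inhibitors tested, with 9 more below the filter, Mmp19 alone rose, by 1.01, and its difference was 0.998 without 3-week array 2 and 0.98 without 0h array 3, 0.98 after quantile normalization and 0.91 after median centring. Mmp2, gelatinase A, had a mean of 414 ± 38.4 at 3 weeks and 213 ± 24.4 at 0h, a difference of 0.91, and Timp1, the inhibitor that blocks collagen breakdown, had 471 ± 35 at 3 weeks and 304 ± 43.0 at 0h, a difference of 0.61. These differences were larger than the spread between arrays but under 2-fold. Of 11 matrix glycoproteins, Spp1, osteopontin, rose by 1.07, with a difference of 0.89 without 0h array 3 and 0.97 after median centring. Of 3 more below the filter, Postn, periostin, a matrix protein of fibroblasts, had 121, 148 and 154 at 3 weeks and 9.90, 8.10 and 48.4 at 0h, with every 3-week array higher. Fn1, plasma fibronectin, a major hepatocyte product, gave 21522 ± 613 at 3 weeks and 21115 ± 1341 at 0h.

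Antigen presentation genes rose at 3 weeks. MHC class II molecules carry peptides on macrophages, dendritic cells and B cells, and 5 of the 7 genes of this list rose, with a median of 1.23. Cd74, the invariant chain that fills the groove, had 14998, 14607 and 14212 at 3 weeks and 4996, 4939.7 and 4927 at 0h, and rose by 1.56 ± 0.04 (limma adjusted p = 2.02e-14). The groups lay well apart and the spread within each was small. RT1-Bb had 5322, 5463 and 5227 at 3 weeks and 1671, 1562 and 1596 at 0h, and rose by 1.72 ± 0.05, RT1-Da rose by 1.37, RT1-Db1 by 1.23 and RT1-Ba by 1.16. Probe sets of RT1 genes disagreed in size and, for RT1-Ba, in sign (-0.09 to 2.27), as can happen among near-identical genes. Class II promoters carry a CCAAT box in reverse, as the Y box. A CCAAT box on either strand was in 6 of the 6 promoters of this list in the RefSeq set, against 38.66% of the 7905 promoters of genes tested. In Cd74, and in Ctss, which was not called (0.26), the only match was in the forward direction. The promoter of RT1-Bb (assembly GRCr8, 250 bases before to 50 after the start, CCAAT or its reverse ATTGG in capitals) holds a match in each direction:
RT1-Bb (chr20:4604069-4604368, minus strand): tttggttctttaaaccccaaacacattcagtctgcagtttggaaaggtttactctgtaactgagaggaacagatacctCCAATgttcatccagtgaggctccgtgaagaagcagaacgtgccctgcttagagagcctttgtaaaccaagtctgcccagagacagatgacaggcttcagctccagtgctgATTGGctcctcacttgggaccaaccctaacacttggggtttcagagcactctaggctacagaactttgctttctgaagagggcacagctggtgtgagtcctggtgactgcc
Ciita, the master activator of the class II genes, had 67.5, 117 and 150.4 at 3 weeks and 35.9, 117 and 31.5 at 0h, a difference of 0.83 that did not reach 2-fold.

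Interferon-induced genes lay mostly above 0h, and 1 or 2 in each of 2 lists rose past the 2-fold limit. Of all genes tested 2.92% rose, and the median difference over all of them was 0.01. In the list for interferon gamma and MHC class I loading, 1 of 22 rose and 18 were above 0, with a median of 0.31. Cxcl9, a chemokine for activated T cells that interferon gamma induces, had 1571, 1602 and 1600.4 at 3 weeks and 729, 689.7 and 545 at 0h, and rose by 1.27 ± 0.09. The chemokines Cxcl10 and Cxcl11 differed by 0.20 and -0.45. The proteasome subunit Psmb9 differed by 0.79 and B2m, the common light chain of class I molecules, by 0.16. In the list for type I interferon, 2 of 23 rose, with a median of 0.45. Mx2 had 3262, 3887 and 4438 at 3 weeks and 1407, 1610 and 1245 at 0h, and rose by 1.43 ± 0.12, and Mx1 rose by 1.04, or 0.94 after median centring. Ifi44l at 0.97 and Irf7, the master factor of the type I response, at 0.97 stayed just under the limit.

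A few chemokine genes changed. Of 19 chemokines and adhesion molecules tested, with 9 more below the filter, 4 rose and 1 fell. Beside Ccl21, Cxcl1, which draws neutrophils, had 4509.9, 5347 and 5100.2 at 3 weeks and 868, 928 and 813 at 0h, and rose by 2.50 ± 0.07. Cxcl16 rose by 1.25. Icam1, a leukocyte adhesion molecule, rose by 1.01, at the limit, with 0.96 without 3-week array 1, 0.97 without 3-week array 2 and 0.97 without 0h array 3, and 0.91 after median centring. Cxcl14 had 29.0, 17.0 and 41.6 at 3 weeks and 125, 117 and 113 at 0h, and fell by 1.6 ± 0.24. Ccl2, the monocyte chemokine, had 187, 232 and 209.8 at 3 weeks and 154, 92.6 and 151 at 0h, a difference of 0.63, and Tnf was below the filter. Cxcl12, which the stroma makes, was -0.68.

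The summed signals of neutrophil, macrophage and lymphocyte markers were higher on every 3-week array than on any 0h array. Such a sum weighs bright genes most, and 49.7% of single genes tested had groups that did not overlap, in either direction. Of 6 neutrophil and antimicrobial genes tested, 3 rose. Lcn2, lipocalin 2, which both neutrophils and injured hepatocytes make, had 2514, 2628 and 2421 at 3 weeks and 542, 501 and 526 at 0h, and rose by 2.23 ± 0.07. S100a9, a subunit of calprotectin in myeloid cells, had 6084, 6442 and 6233 at 3 weeks and 3015, 2686 and 2981 at 0h, and rose by 1.11 ± 0.06, beside its partner S100a8 at 0.91. Csf3r, the receptor for granulocyte colony-stimulating factor, rose by 1.22. The summed signal of all 10 genes on the array was 12800.1 to 13045 at 3 weeks, against 5636 to 5941 at 0h. The other 4 of the 10 failed the filter: Il1r2, the decoy receptor of interleukin 1, had 208, 229 and 239 at 3 weeks and 38.4, 37.3 and 48.3 at 0h, with no overlap. Camp and Cxcr2 were below 75.3 on every array of both groups, and Mmp8 had 147, 104 and 66.9 at 3 weeks and 88.9, 141 and 126 at 0h, which overlapped. Among the 20 markers of macrophages and Kupffer cells, Gpnmb, a protein of lipid-laden and scar-associated macrophages, alone rose, with 2785, 3028 and 2952 at 3 weeks and 1167, 1018 and 994 at 0h, a rise of 1.45 ± 0.06. Clec4f, a marker of resident Kupffer cells, was 0.14, Cd68 was 0.03 and the scavenger receptor Cd163 was -0.69. The 22 macrophage markers on the array, 2 of them below the filter, summed to 81737 to 83022 at 3 weeks and 62458 to 64275 at 0h. None of 16 lymphocyte markers tested was called, and 11 of them lay above 0. Cd79b, below the filter, had 41.6, 50.1 and 40.5 at 3 weeks and 80.3, 52.7 and 81.3 at 0h, lower on every 3-week array. Cd2, Cd8b and Ncr1, also below it, had overlapping groups. The sum over the 20 lymphocyte markers on the array was 8049 to 8339 at 3 weeks and 6472 to 6535 at 0h. The part of these shifts in the MHC class II and chemokine rises was not tested.

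Several genes outside the lists also had a rise of at least 2-fold: Clec7a, the beta-glucan receptor of myeloid cells, at 1.84, Cybb, the phagocyte oxidase, at 1.03, Ltb, lymphotoxin beta, at 1.63, and Sod2, the mitochondrial superoxide dismutase, at 1.29. These 4 were picked after their values were seen, and the alternatives were not run for them singly.

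**Figure D3:**
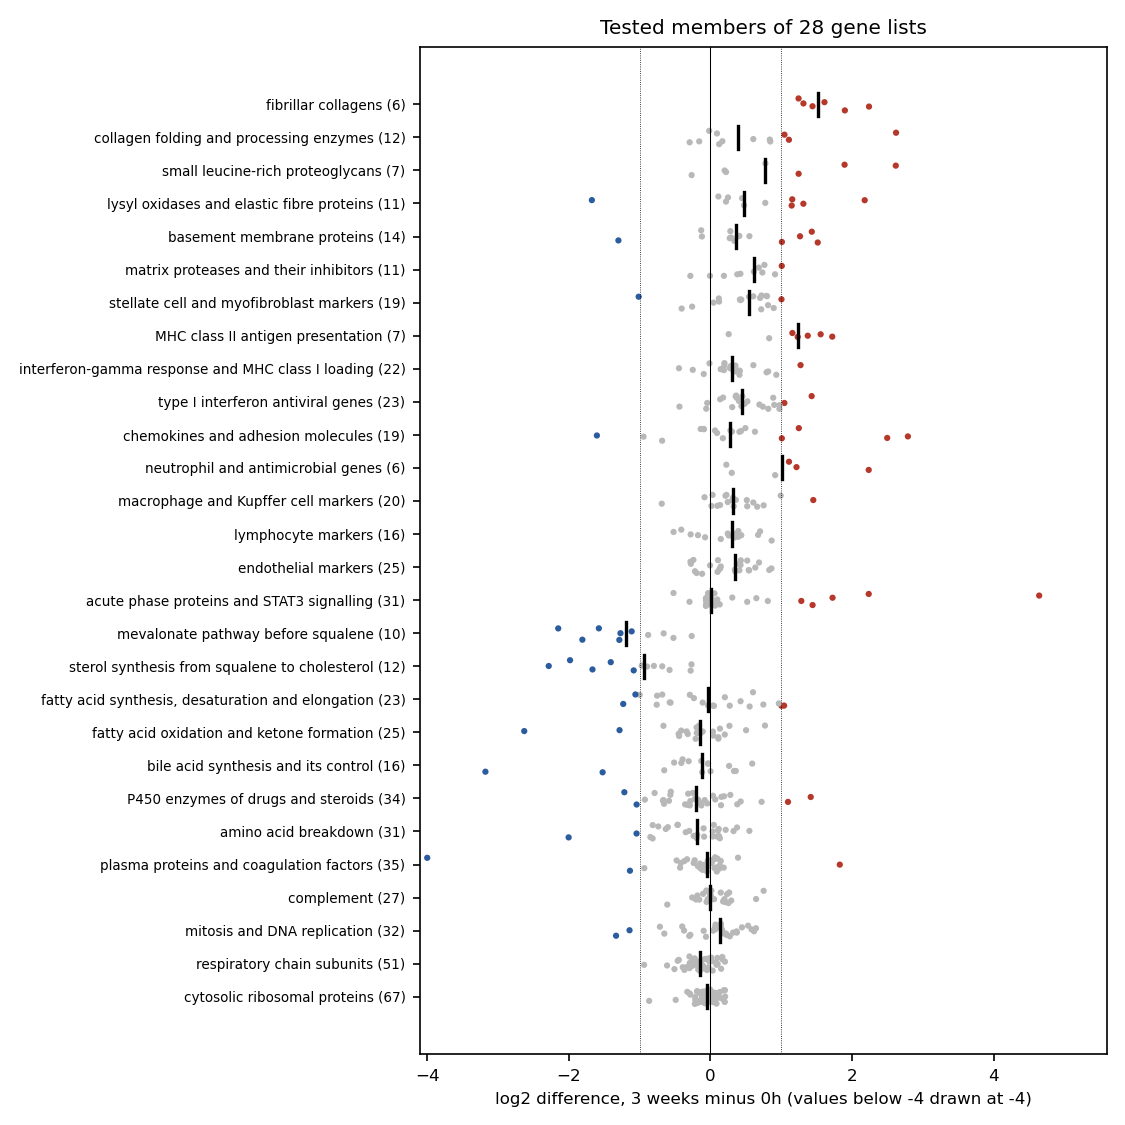
Difference between 3 weeks and 0h (log2, horizontal axis) of the tested members of 28 gene lists, with the number tested in brackets; red points rose, blue points fell, grey points were not called, and the black bar is the list's median. All 6 fibrillar collagens lie right of the 2-fold line, the 10 mevalonate and 12 sterol genes lie left of 0, and ribosomal and respiratory chain genes crowd around 0.

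The acute phase genes split into a few large rises and a majority near 0. Acute phase proteins are plasma proteins that hepatocytes make under interleukin 6 and STAT3 signalling. Of 31 genes of this list, 5 rose, and the list's median was 0.01. Beside A2m and Lcn2, Lbp, which presents bacterial lipopolysaccharide, had 18182, 19529 and 19035 at 3 weeks and 5577, 6381 and 5240.2 at 0h, and rose by 1.72 ± 0.06. Cebpd, a transcription factor of the acute phase, had 748, 818 and 796 at 3 weeks and 359, 249.6 and 243 at 0h, and rose by 1.44 ± 0.13, and Pla2g2a, a secreted phospholipase, rose by 1.28 ± 0.20. For these 3 genes the arrays of the groups did not overlap. The STAT3 motif TTCCNGGAA, searched on both strands, was in 1 of 26 promoters of this list (3.8%), against 1.34% of those of genes tested. That match was in Fga, which was not called, and the promoters of Lcn2 and Pla2g2a had none. The classic abundant acute phase proteins lay close to 0h: Orm1 at 0.10, Hp at -0.06, Crp at 0.07, Fga at -0.03, C3 at -0.004 and Cp at 0.10. All 6 were bright in both groups, the lowest being Crp with 30447 at 3 weeks and 29085 at 0h, and an array may compress differences at the bright end. Hamp, the iron hormone hepcidin, had a mean of 12394 ± 539 at 3 weeks and 17800 ± 461 at 0h, a difference of -0.52.

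Cholesterol synthesis genes were all below 0h at 3 weeks, and 6 of 10 genes before squalene and 5 of 12 after it fell, with medians of -1.19 and -0.93. The promoters of 3 genes with large falls are given first, with a CCAAT box on either strand (CCAAT or, read on the other strand, ATTGG) in capitals, since a CCAAT box beside a sterol regulatory element is known from promoters of this pathway. They are RefSeq sequences of assembly GRCr8 that run from 250 bases before the start of the gene to 50 bases after it, in the gene's own direction.
Idi1 (chr17:66547475-66547774, minus strand): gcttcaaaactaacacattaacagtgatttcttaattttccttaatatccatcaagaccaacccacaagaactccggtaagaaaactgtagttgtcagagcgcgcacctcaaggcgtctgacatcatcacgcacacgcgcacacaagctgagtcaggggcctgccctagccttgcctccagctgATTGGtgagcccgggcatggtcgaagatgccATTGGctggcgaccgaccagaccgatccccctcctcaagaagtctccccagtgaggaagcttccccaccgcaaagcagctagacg
Msmo1 (chr16:29746863-29747162, plus strand): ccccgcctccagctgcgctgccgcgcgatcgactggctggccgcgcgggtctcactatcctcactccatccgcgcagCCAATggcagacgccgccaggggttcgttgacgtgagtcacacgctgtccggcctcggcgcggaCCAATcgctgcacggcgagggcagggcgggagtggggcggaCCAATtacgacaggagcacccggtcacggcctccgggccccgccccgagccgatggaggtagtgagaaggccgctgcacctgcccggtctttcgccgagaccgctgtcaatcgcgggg
Hmgcs1 (chr2:53382054-53382353, plus strand): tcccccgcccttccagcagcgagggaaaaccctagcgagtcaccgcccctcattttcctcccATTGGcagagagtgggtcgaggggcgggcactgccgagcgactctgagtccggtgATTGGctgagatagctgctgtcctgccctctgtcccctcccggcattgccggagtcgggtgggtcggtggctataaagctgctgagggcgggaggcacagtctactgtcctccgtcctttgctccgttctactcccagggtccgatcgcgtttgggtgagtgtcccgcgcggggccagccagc
Of the 22 genes of both lists, 17 had a promoter in the RefSeq set. A CCAAT box was in 6 of 7 promoters of the mevalonate list (85.7%) and 8 of 10 of the sterol list (80%), against 38.66% of the 7905 promoters of genes tested. The promoters without one were those of Acat2 and Cyp51, which fell, and of Dhcr7, which was not called. Mvk and Nsdhl, neither of them called, had 5 boxes each, so that the box was not particular to genes that fell. The consensus sterol regulatory element in its strict form, searched on both strands, was in 0 of the 17 and in 0.1% of the promoters of genes tested. A match is a description of these letters only, and other spellings of the element were not searched.

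In the first part of the pathway, acetyl-CoA is built up to mevalonate and then to farnesyl units. Hmgcs1, which makes HMG-CoA, had 7633, 8408 and 8179.6 at 3 weeks and 23663, 25935 and 22734 at 0h, and fell by 1.58 ± 0.06. Idi1, the isomerase of isoprene units, had 2569, 2556 and 2552 at 3 weeks and 11239.9, 11736 and 11261 at 0h, and fell by 2.15 ± 0.04 (limma adjusted p = 9.99e-16). In both genes the highest 3-week array was below the lowest 0h array. Acat2, the first enzyme, fell by 1.27, Mvd fell by 1.29 and Fdps by 1.11; the second probe set of Fdps was at 0.30, and the mean of both gave -0.41, so that call rests on the brighter one. Fdft1, which makes squalene, was -0.88, Mvk -0.66, Pmvk -0.52 and Ggps1 -0.27.

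From squalene on, the sterol rings are closed and trimmed. Sqle, squalene epoxidase, had 533, 479 and 548 at 3 weeks and 1611, 1664 and 1774 at 0h, and fell by 1.67 ± 0.10. Msmo1, a sterol methyl oxidase, had 3076, 2732 and 2836 at 3 weeks and 14373, 13669 and 14192 at 0h, and fell by 2.28 ± 0.07. Tm7sf2, a sterol reductase, fell by 1.98, Cyp51, the lanosterol demethylase, by 1.41, and Ebp, a sterol isomerase, by 1.08, which was -0.995 after quantile normalization. Dhcr7, a late enzyme, differed by -0.80. All 22 enzymes thus had negative differences, of which 11 passed the 2-fold limit.

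Genes that control and carry cholesterol were called in part. Of 17 tested, 5 fell. Insig1, the anchor that holds SREBP2 in the endoplasmic reticulum, fell by 1.14. Stard4, a cholesterol carrier, fell by 1.3, although its 3 probe sets ran between -1.76 and 0.61. Abcg5 and Abcg8, which together pump sterols into bile and answer to the LXR receptors, fell by 2.67 ± 0.17 and 2.36 ± 0.29. Abcg5 had 90.1, 129 and 149 at 3 weeks and 924, 838 and 805 at 0h. Srebf2, which encodes SREBP2, had a mean of 1289 ± 137 at 3 weeks and 1009.8 ± 123 at 0h (0.35), and Scap, the sterol-sensing escort of SREBP2, was -0.89. Another LXR target, Abca1, was -0.26 and Abcg1 was 0.52. Aacs, which makes acetoacetyl-CoA for lipid synthesis and is in no list, fell by 2.21 ± 0.15, as was seen after its value was known.

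**Figure D4:**
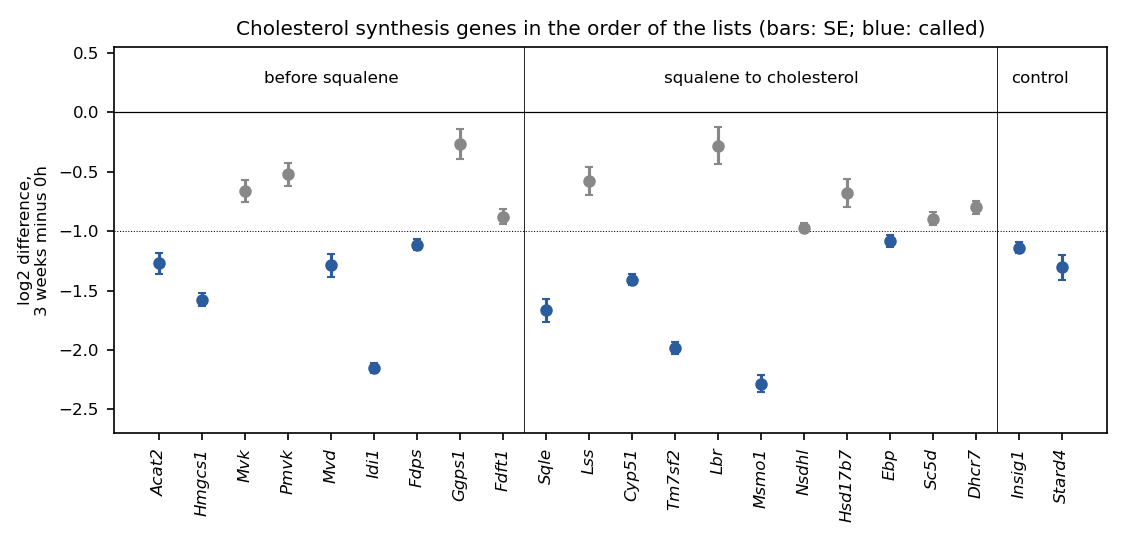
Difference between 3 weeks and 0h (log2, vertical axis, with SE) of 20 of the 22 cholesterol synthesis genes in pathway order and of Insig1 and Stard4; blue genes fell, grey genes were not called, and the dotted line marks 2-fold. All 22 genes drawn lie below 0, from Ggps1 at -0.27 to Msmo1 at -2.28.

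Fatty acid synthesis genes were called in both directions. Of 23 genes of synthesis, desaturation and elongation, 2 rose and 2 fell. Acaca, acetyl-CoA carboxylase, had 3473, 3689 and 3597 at 3 weeks and 1676, 1891 and 1649.7 at 0h, and rose by 1.04 ± 0.07, and Fasn, fatty acid synthase, had 9254, 8946 and 9104 at 3 weeks and 4439.7, 5099 and 4116 at 0h, and rose by 1.003 ± 0.07. Both calls lay at the limit: median centring gave 0.94 and 0.90, the mean over the probe sets of Acaca gave 0.57, and Fasn was 0.99 without 3-week array 1, 0.99 without 0h array 1 and 0.93 without 0h array 3 and 0.99 after quantile normalization. Scd, the stearoyl desaturase, was just short at 0.96. Acss2, which activates acetate, fell by 1.23, and Fads2, a desaturase of polyunsaturated fatty acids, by 1.06, which was -0.97 without 3-week array 3 and -0.99 after quantile normalization. Srebf1, the fatty acid counterpart of SREBP2, was at 0.55, and Thrsp at 0.04.

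Of fatty acid oxidation genes, 2 fell and none rose. Cpt1a, which carries fatty acids into mitochondria as the rate-limiting step, had 1058, 1375 and 1175 at 3 weeks and 7513, 7688 and 7258 at 0h, and fell by 2.63 ± 0.08 (limma adjusted p = 1.04e-13). Its 2 probe sets gave -2.63 and -2.32. Pdk4, which blocks pyruvate oxidation in fasting, had 658, 788 and 627 at 3 weeks and 1597, 1831 and 1669 at 0h, and fell by 1.28 ± 0.09. No other of the 25 genes tested was called: Acadm was -0.44 and Hadha -0.14. Among 17 genes of droplets, carriers and lipases, Fabp4 rose, as given above, and Cideb, a lipid droplet protein, rose by 1.18. Of the 5 fat cell markers tested Fabp4 alone rose, the defining markers Adipoq, Lep and Plin1 being below the filter (Plin1 with 43.5, 69.9 and 45.8 at 3 weeks and 16.5, 5.10 and 4.20 at 0h), and the 9 markers on the array summed to 3827 to 3879 at 3 weeks and 3689 to 3969.7 at 0h. None of 15 apolipoprotein and lipoprotein assembly genes was called, with Apoa5 at -0.70 and Apoa4 at 0.54 as the extremes.

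Of 26 genes of glucose and glycogen metabolism, 3 rose and none fell. Pfkl, liver phosphofructokinase, had 638, 575 and 562 at 3 weeks and 114, 191 and 143 at 0h, and rose by 1.90 ± 0.14. Irs2, an insulin receptor substrate, rose by 1.17. The genes of glucose output hardly differed: Pck1 was -0.03, Fbp1 -0.02 and G6pc1 -0.13. Pkm, the pyruvate kinase of non-parenchymal cells, was 0.96.

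In bile acid synthesis 2 of 16 genes fell and none rose. Cyp7a1, the rate-limiting enzyme, had 3124, 3152 and 3091 at 3 weeks and 9244, 8439.8 and 9355 at 0h, and fell by 1.52 ± 0.05. Cyp8b1, the sterol 12-alpha-hydroxylase that sets the share of cholic acid, had 1227, 1131 and 1167 at 3 weeks and 10791, 10960.3 and 10533 at 0h, and fell by 3.18 ± 0.04 (limma adjusted p = 9.88e-18). Both genes had 3-week arrays well below every 0h array. The other genes of the list were not called: the receptor Nr1h4 (FXR) was 0.36, its target repressor Nr0b2 (SHP) -0.04, Nr5a2 -0.65 and Cyp27a1, of the alternative pathway, -0.31. Of 16 transporters, Abcc3 alone rose. Pumps of the bile canaliculus were below 0h without being called, Abcb11, the bile salt pump, at -0.72, Abcc2 at -0.95 and Abcb4 at -0.95, and with median centring 2 of the transporters fell. Slc10a1, the uptake carrier of bile acids, was -0.07.

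Most P450 enzymes of drugs and steroids were near 0h at 3 weeks. Of 34 tested, 2 rose and 2 fell, with a median of -0.20. Cyp2e1, which activates carbon tetrachloride, had 31827, 31223 and 33928 at 3 weeks and 35938, 38166 and 33939.8 at 0h, a difference of -0.15 ± 0.06, far under 2-fold. Cyp17a1, a steroid hydroxylase, had 1084, 1214 and 1081 at 3 weeks and 356, 435 and 450.3 at 0h, and rose by 1.42 ± 0.08. Cyp1a1, the target of the aryl hydrocarbon receptor, rose by 1.09 from dim signals, which was 0.90 without 3-week array 1, 0.79 without 3-week array 2 and 0.90 without 0h array 1, and 0.996 after median centring; with only these 2 groups fitted its limma adjusted p was 0.0608. Cyp2c12, a female-biased enzyme, had 13903, 15681 and 14265 at 3 weeks and 33576, 36489 and 31864 at 0h, and fell by 1.22 ± 0.05, and Cyp3a9 fell by 1.04, or -0.99 without 3-week array 3 and -0.96 after quantile normalization. The probe sets of P450 families can share sequence, so single members are uncertain. The receptors that drive these enzymes were not called, with Nr1i3 (CAR) at -0.66 and Nr1i2 (PXR) at -0.56.

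Antioxidant and conjugating enzymes gave both rises and falls, beside shares of 2.92% and 1.28% over all genes tested. Of 25 NRF2 targets and glutathione genes, 3 rose. Gpx2, a glutathione peroxidase of epithelia, had 635, 642 and 635 at 3 weeks and 253, 205 and 225 at 0h, and rose by 1.43 ± 0.08. Gclc, the rate-limiting enzyme of glutathione synthesis, rose by 1.14, or 0.94 as the mean of its probe sets, and Hmox1, heme oxygenase, by 1.12. Nqo1, the usual reporter of NRF2, was -0.18 and Srxn1 was -0.14. Gstm4 alone of 16 glutathione transferases rose, by 1.79 ± 0.31, with a 0h mean of 64.6. Ugt2b1, a glucuronosyltransferase, had 12198, 12433 and 11717 at 3 weeks and 4161, 4058 and 4048 at 0h, and rose by 1.56 ± 0.04; the family is a set of close copies. Of aldo-keto reductases and aldehyde dehydrogenases, Aldh1a7 rose by 1.21 ± 0.06, while Akr1c1 had 1209, 1196 and 1239 at 3 weeks and 4148, 4343 and 4103 at 0h, and fell by 1.78 ± 0.07, beside Akr1b7.

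Amino acid breakdown and the urea cycle were marked by single falls. Sds, serine dehydratase, which the fasting liver uses to make glucose from serine, had 1246, 1259 and 1465 at 3 weeks and 5408, 5399.6 and 5208 at 0h, and fell by 2.00 ± 0.07. Hal, histidine ammonia lyase, fell by 1.04, or -0.97 without 3-week array 2 and -0.99 without 3-week array 3 and -0.98 after quantile normalization. No other of the 31 genes was called, with Oat at -0.85 and Got1 at -0.82. Asl, of the urea cycle, fell by 1.06, or -0.95 after quantile normalization, while Cps1, Otc and Arg1 were -0.24, -0.03 and 0.004. Slc25a15, the ornithine carrier of the cycle, was -0.75.

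Zonal markers were examined because carbon tetrachloride injures the hepatocytes around the central vein. Of 15 pericentral genes 3 fell and of 19 periportal genes 3 fell, and none of either list rose; the falls of the periportal list are Sds, Hal and Asl, already given. Among pericentral genes, Cyp7a1 fell, as given above. Slc1a2, a glutamate carrier, had 100.4, 60.1 and 133 at 3 weeks and 203, 244 and 270 at 0h, and fell by 1.21 ± 0.23, which was -0.94 without 3-week array 2. Tbx3, a target of Wnt signals in these cells, fell by 1.44 ± 0.48 (limma adjusted p = 0.0236), a call that did not hold without 3-week array 2 (-0.62, limma adjusted p = 0.0938), without 0h array 2 (limma adjusted p = 0.0682) or without 0h array 3 (limma adjusted p = 0.0612). Glul, glutamine synthetase, the most sharply confined pericentral gene, had 3546, 3786 and 4045 at 3 weeks and 6811, 6372 and 6592 at 0h. All 3-week arrays were lower, by -0.80 ± 0.07, short of 2-fold, and Axin2, another Wnt target, was -0.11. The medians of the 2 lists were -0.15 and -0.05.

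Secreted plasma proteins and complement were nearly at their 0h level. Of 35 plasma proteins and coagulation factors, with a median of -0.05, 1 rose and 2 fell. Serpina7, thyroxine-binding globulin, had 8251, 8710.2 and 9014 at 3 weeks and 2372, 2415 and 2500.4 at 0h, and rose by 1.83 ± 0.05. Serpina6, corticosteroid-binding globulin, had 9611, 9606 and 9494 at 3 weeks and 21969.7, 19989 and 21293 at 0h, and fell by 1.14 ± 0.05, beside A1bg. Both hormone carriers moved without overlap between groups, in opposite directions. None of 27 complement genes was called, with a median of -0.004. Such genes are bright on all arrays, and a difference near the top of the scale may be compressed.

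Growth hormone, secreted in a different rhythm in each sex, sets the level of many rat liver genes. Of 15 genes known as female-biased in the rat, 6 fell and 2 rose, with a median of -0.76; of 15 male-biased genes 3 fell and none rose, with a median of -0.25. Both lists were drawn up with earlier results of these data known, the sex of the animals is not stated, and Obp3, Akr1b7 and A1bg are members. Prlr, the prolactin receptor, had 2658, 2793 and 2711 at 3 weeks and 8205, 8271 and 8045 at 0h, and fell by 1.58 ± 0.05. Trim24, a nuclear receptor cofactor, had 599.6, 662 and 721 at 3 weeks and 2493, 2378 and 2333 at 0h, and fell by 1.84 ± 0.08. Stac3 fell by 1.09. Cyp2c11, the leading male P450, had 16154 ± 209 at 3 weeks and 20718 ± 708 at 0h, a difference of -0.36, and Cyp2c13 was 0.28. In the growth hormone and insulin-like growth factor list, Igfbp4 had 10428, 6554 and 8582 at 3 weeks and 2582, 2619 and 2625 at 0h, and rose by 1.68 ± 0.10. Igf2r rose by 1.07, or 0.54 as the mean of its probe sets, 0.97 after median centring and 0.98 without 3-week array 1 and 0.98 without 0h array 1, and Met, the receptor of hepatocyte growth factor, fell by 1.06, or -0.97 without 3-week array 1 and -0.99 without 0h array 3. Igf1 itself was -0.13, and the growth hormone receptor Ghr was -0.65.

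Clock genes and liver transcription factors contributed a few calls, and the hour of sampling is not given. Of 17 clock genes, 1 rose and 4 fell. Per2 had 599.5, 679 and 593 at 3 weeks and 165, 156 and 159.7 at 0h, and rose by 1.86 ± 0.14. Nr1d1 had 116, 90.9 and 183 at 3 weeks and 652, 719.5 and 786 at 0h, and its relative Nr1d2 fell by 1.16, Dbp by 1.5 and Noct by 1.20. Bmal1, the activator that Nr1d1 represses, was 0.40. Clock, below the filter, had 41.2, 39.6 and 64.1 at 3 weeks and 162.8, 119.2 and 125.3 at 0h, with every 3-week array lower. Per3 and Hlf, also below the filter, had overlapping groups. Of 29 liver-enriched transcription factors, Bcl6 had 1325, 1262 and 1237 at 3 weeks and 279.5, 156 and 175 at 0h, the largest rise of that list, and Cebpd rose, as given above. Onecut1, hepatocyte nuclear factor 6, had 2647, 2383 and 2403 at 3 weeks and 5447, 5955 and 6161 at 0h, and fell by 1.24 ± 0.06, or -0.89 as the mean of its probe sets. Hnf4a, a master regulator of hepatocyte genes, fell by 1.01, but the mean of its probe sets gave -0.61 and the difference was -0.99 without 3-week array 1 and -0.97 without 3-week array 3, and -0.99 after quantile normalization. Cebpa was 0.21.

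Cell division genes were called in both directions at 3 weeks, where 2.92% of all genes tested rose and 1.28% fell. Of 32 mitosis and DNA replication genes none rose and 2 fell, Plk1 by 1.33 and Cdkn3 by 1.14, the second of which was -0.62 without 3-week array 2; both were near the filter signal. Mki67 had a mean of 123 ± 16.1 at 3 weeks and 107 ± 7.81 at 0h, and Pcna had 2115 ± 65.0 at 3 weeks and 1912 ± 142 at 0h. Of 28 cyclins, cyclin inhibitors and growth arrest genes, Cdkn1a, the p21 inhibitor, had 856, 1055 and 633 at 3 weeks and 176, 296 and 260.4 at 0h, and rose by 1.73 ± 0.16. Plk2 fell by 1.24 and Sesn1 by 1.20, while Mdm2 was 0.05 and Bax 0.10. Of 26 immediate early genes, Myc rose by 1.14, Dusp1 had 1035, 1039.8 and 1125 at 3 weeks and 3163, 2909.6 and 3197 at 0h and fell by 1.52 ± 0.08, and Egr1 fell by 1.14. In the list of serine synthesis and the ATF4 response, Phgdh rose by 1.45 and Vldlr by 1.23, both from dim 0h signals, and Hyou1 alone of 22 endoplasmic reticulum genes rose, by 1.26. Hspa5, the main chaperone of that compartment, was -0.15.

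Bile duct and progenitor markers gave 3 rises among 17 tested. Sox4, a transcription factor of the duct plate, rose by 1.22, Dmbt1, a mucosal defence protein, had 1248, 1535 and 1380.1 at 3 weeks and 554, 649.6 and 664 at 0h and rose by 1.14 ± 0.09, and Spp1 rose, as given above. Krt19, the usual duct keratin, was 0.34 and Epcam -0.02, while Sox9 and Krt7 were below the filter. Also below it were Dlk1, with 53.8, 51.7 and 62.5 at 3 weeks and 16.1, 4.90 and 8.50 at 0h, and Gpc3, with 58.1, 71.9 and 68.3 at 3 weeks and 14.3, 15.4 and 32.1 at 0h. The summed signal of all 26 markers on the array was 19258 to 20119 at 3 weeks and 15741 to 16259.9 at 0h. None of 25 endothelial markers tested was called, with a median of 0.34, and the 26 on the array summed to 22081 to 22566 at 3 weeks against 18089.9 to 18452 at 0h.

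Genes of the exocrine pancreas, a neighbouring organ, were measured beside Cpa1. Of 24 such genes on the array, 17 were below the filter, among them Prss1, Prss2, Ctrb1 and Cel. Of the 7 tested, Spink1 rose, Cpa1 and Cela1, an elastase, fell, the last by 1.39, and Clps, Pnlip, Cpb1 and Amy2a3 were not called. Pnlip had 88.7, 95.1 and 137 at 3 weeks and 45.7, 56.1 and 70.3 at 0h, and Cpb1 had 143, 192 and 221 at 3 weeks and 161, 239 and 229 at 0h. Thus Cpa1 was high on all 0h arrays while the trypsinogen and chymotrypsinogen genes were below the filter, and the source of that signal was not tested. Amy2a3, an amylase whose probe set may also read the liver amylase, had 14688 ± 383 at 3 weeks and 15969 ± 385 at 0h. Of 5 red cell markers none was called at 3 weeks, with Hbb at -0.12.

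No gene was called in several housekeeping groups: none of 67 cytosolic ribosomal protein genes (median -0.05), 51 respiratory chain genes (median -0.14), 30 proteasome subunits (median -0.03) or 21 lysosomal enzymes (median 0.18) was called. The lowest of the respiratory chain genes was Ndufb8, at -0.94. In the iron list, Hmox1 was the single call, with the transferrin receptor Tfrc at 0.63.

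The 3-week liver was last set against the mean of the 6-week and 9-week livers, to show where the early time differed from the later ones. At 3 weeks 294 genes were higher (2.85% of those tested) and 300 lower (2.91%) than later, together 5.76%, and the median over all genes was -0.03. Against 0h, 5.14% of genes rose and 4.43% fell at 6 weeks, and 6.32% rose and 3.63% fell at 9 weeks. Car3, carbonic anhydrase 3, an abundant male-biased liver enzyme, had 34179 ± 2841 at 0h, 28203 ± 1958 at 3 weeks, 101 ± 30.2 at 6 weeks and 397 ± 24.9 at 9 weeks. Its difference of 7.02 ± 0.11 between 3 weeks and later was the largest (limma adjusted p = 2.63e-17). A2m had 739.6 ± 23.3 at 0h, 18865 ± 1012 at 3 weeks, 108 ± 13.8 at 6 weeks and 237 ± 21.2 at 9 weeks, a difference of 6.74 ± 0.08. The 3-week liver thus had A2m far above every other time. Cyp2c11 was higher at 3 weeks by 5.99 ± 0.07, Nrep by 4.54 ± 0.06, Ces1d, a carboxylesterase, by 3.91 ± 0.07, the neutrophil defensin gene RatNP-3b by 3.82 ± 0.19, Gstp3 by 3.34 ± 0.05 and Alox15, a lipoxygenase, by 3.30 ± 0.27. In Car3, Cyp2c11, Nrep, Ces1d and Gstp3 the 3-week level lay within 2-fold of 0h, and the low levels were those of the later times.

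The 3-week liver was lower than later in genes of another kind. Acot1, an acyl-CoA thioesterase, had 3.00, 24.8 and 2.90 at 0h, 19.1, 26.2 and 33.1 at 3 weeks, 3419, 4199.6 and 3916 at 6 weeks and 4077, 3755 and 3543 at 9 weeks, a difference of -6.52 ± 0.20 at 3 weeks. Trib3, a target of ATF4, had 333 ± 14.8 at 0h, 274 ± 46.4 at 3 weeks, 3902 ± 93.0 at 6 weeks and 3518 ± 215 at 9 weeks, a difference of -3.70 ± 0.08. Of 23 genes of serine synthesis and the ATF4 response, 14 were lower and 0 higher at 3 weeks than later, with a list median of -1.27; Phgdh differed by -3.09 ± 0.12, Asns by -1.47 ± 0.12 and Ddit3 by -1.57 ± 0.08. The other large differences were those of Abcb1 (-3.45 ± 0.07), Cyp1a1 (-3.02 ± 0.26), Gstm4 (-2.87 ± 0.27), Isyna1, an enzyme of inositol synthesis (-2.78 ± 0.09), and S100g, a calcium carrier (-2.78 ± 0.14). Cpt1a was lower at 3 weeks, with a difference of -2.46 ± 0.07 and levels of 7486 ± 217 at 0h, 1202 ± 160.2 at 3 weeks, 7103 ± 616 at 6 weeks and 6251 ± 194 at 9 weeks, so that its low level was seen at 3 weeks alone. IgG-2a had the same form, with 5677 ± 305, 1009.8 ± 77.8, 6333 ± 637 and 7333 ± 475 in that order of times.

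By group of genes, the early liver differed from the later ones in some ways and not in others. None of the 6 fibrillar collagens tested was called between 3 weeks and later, and Col1a1 was higher at 3 weeks by 0.89 and Col3a1 by 0.99, just under 2-fold. Lum was called higher at 3 weeks, by 2.94 ± 0.19, with 86.5 ± 11.7 at 0h, 611 ± 43.8 at 3 weeks, 63.4 ± 21.1 at 6 weeks and 70.4 ± 5.52 at 9 weeks. Of 19 chemokines and adhesion molecules 7 were higher at 3 weeks and 1 lower; Cxcl1 was higher by 2.59 ± 0.06 and Ccl21 by 1.46 ± 0.09. Of 15 male-biased genes 8 were higher at 3 weeks, and of 23 fatty acid synthesis genes 9 were higher and 1 lower. None of the 22 cholesterol synthesis genes was called in this comparison. All 5 red cell markers tested were higher at 3 weeks than later, from Hba-a2 at 1.29 to Ahsp at 3.05, and the part of blood in the tissue in these differences was not tested.

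**Figure D5:**
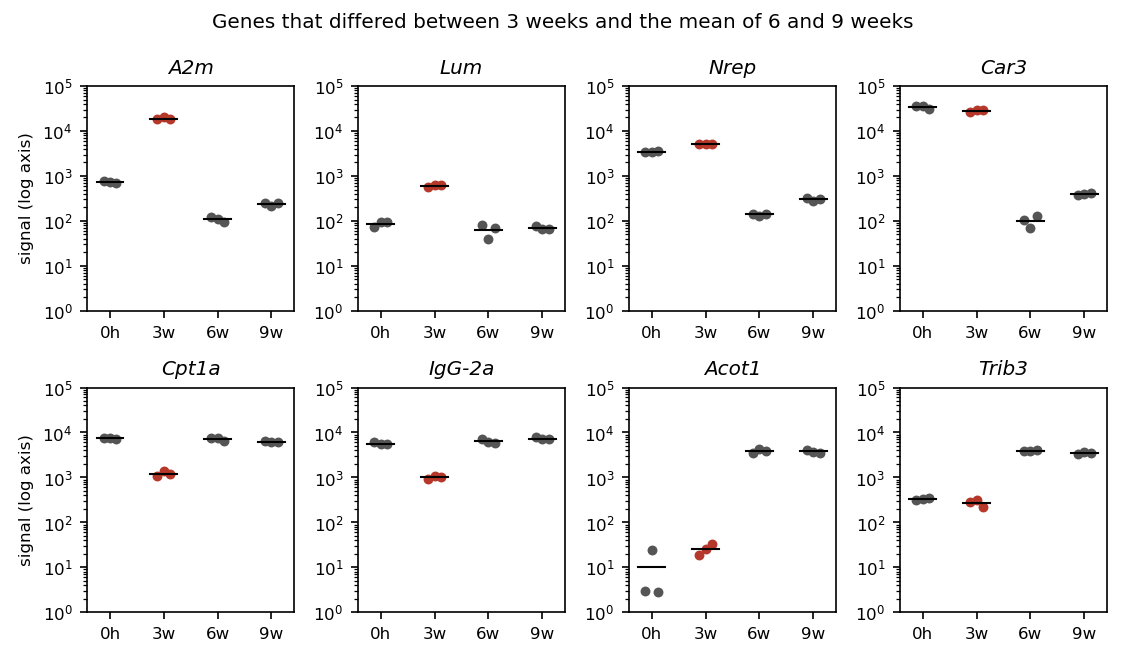
Signal (vertical log axis) of 8 genes on each array at 0h, 3, 6 and 9 weeks, with the 3-week arrays in red and the mean of 3 as a bar. A2m and Lum are high at 3 weeks alone, Nrep and Car3 are low at 6 and 9 weeks, Cpt1a and IgG-2a are low at 3 weeks alone, and Acot1 and Trib3 are high at 6 and 9 weeks.

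Agreement within the array platform was checked last. Of the called genes, 99 had several probe sets above the filter, and in 14 of these at least 1 probe set went against the call, among them RT1-A3, RT1-Ba, Nid1, Fdps, Stard4 and Slc25a23, a mitochondrial carrier whose probe sets gave -0.50 and 2.09. The mean over a gene's probe sets fell short of 2-fold for RT1-A3 (0.89), RT1-Db1 (0.99), Loxl2 (0.87), Hyou1 (0.87), Vldlr (0.98), Sox4 (0.93), Stard4 (-0.82), Nr1d2 (-0.99) and Sesn1 (-0.999), beside those already given. Spink1 had 9 ratios between 5 and 5.6 in the authors' deposited table, and A2m between 4.7 and 4.9. Those ratios pair the same 6 arrays and add no separate measurement. For Tgfb1 and Fst, both dim at 0h, the authors' deposited table ranged between 2.4 and 4.8 and between 2.2 and 4.8.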

How the data were processed

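Rat liver RNA had been hybridised to Affymetrix Rat Genome 230 2.0 arrays. The deposited values are signal intensity per probe set from GCOS 2.0, per the submitters' processing notes, and each array's trimmed mean of 500.2 is that of a global scaling; the file header names the 0h columns as scaled. The log2 ratios of every 3-week array to every 0h array are the authors' deposited values and were used for description only. All differences here were computed from the signals as log2(signal + 16), for probe sets with a gene symbol in the deposited file, after leaving out those under the 40th percentile of mean log2 signal (6.51, a signal of 75.3). Symbols were updated through RefSeq tables (15171 current, 2960 by synonym, 244 by accession, 1516 kept as filed). The brightest probe set stood for a gene, which gave 10321 genes. The filter passed 18625 probe sets, a number that includes probe sets without a symbol, which were not used.

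A limma 3.58.1 fit (R 4.3.3) over all 12 arrays with 1 mean per group and an intensity trend had 8 residual degrees of freedom. It gave 3 weeks minus 0h, and 3 weeks minus the mean of 6 and 9 weeks, with Benjamini-Hochberg adjustment over all genes. Fits were tested on simulated data. Figures were drawn with matplotlib 3.10.9. Arrays that share a replicate number did not deviate together between 3 weeks and 0h (r = 0.005, 0.035 and -0.006), so the number was no block.

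The members, gene lists, motifs and tests were chosen with earlier results of these data known. Named genes are the 15 largest rises and falls with a true gene symbol, the called members of each list, other list members with values only, and the 8 largest differences each way between 3 weeks and later. Certain genes and 1 motif that these rules cover are not reported here. Some genes are marked in the text as picked after their values were seen. Microarray annotation by the platform can be old, and probe sets cannot separate near-identical genes.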

Additional observations from a re-analysis of the deposited data

Results flagged for a closer look

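This search covered the genes that the naming rules above select, not all genes called at 3 weeks. Among the selected genes, 11 called at 3 weeks had moved the other way, past the same limits, at 6 or 9 weeks against 0h. Their 3-week level also differed from that later time in the direct comparison (limma adjusted p under 0.05). The changes at 3, 6 and 9 weeks share the 0h arrays, and their cause was not tested.

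A2m, the protease inhibitor, was at 4.642 at 3 weeks, -2.62 at 6 weeks and -1.58 at 9 weeks on the log2 scale. RatNP-3b, a neutrophil defensin gene, was at 1.46, -1.14 and -3.59 at the same times. S100a9 was at 1.109, -1.08 and -1.86, and Alox15, a lipoxygenase, at 1.166, -2.50 and -1.77. These 4 genes, 2 of them known from neutrophils, were high at 3 weeks and below 0h at both later times.

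Pla2g2a was at 1.283 at 3 weeks, -2.21 at 6 weeks and 0.04 at 9 weeks. Cxcl9 was at 1.272, -1.34 and 2.19, so that it was above 0h at 3 and 9 weeks and below it at 6 weeks. Mx1 was at 1.044, -1.54 and -0.48, Aldh1a7 at 1.21, -1.07 and -0.03, and Fasn at 1.003, -1.18 and -0.40. For Pla2g2a, Mx1, Aldh1a7 and Fasn the opposite change was called at 6 weeks alone.

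In the opposite sense, Noct, of the clock list, was at -1.2 at 3 weeks, 1.62 at 6 weeks and -0.12 at 9 weeks. Cxcl14 was at -1.604, 0.65 and 1.07 at these times. Groups of 3 arrays are too small for a check of single arrays that stand apart.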

How the results depend on the processing

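No alternative run reversed any of the 159 named-gene results: 111 held under every alternative run for them and 48 fell short of a threshold under at least 1, with their direction kept. The filter at the 60th percentile kept 129 of the 159, a pseudocount of 1 gave 157, leaving out a 6-week or 9-week array was run for the 16 that compare 3 weeks with later, and the 1.5-fold minimum was run for counts of genes alone. The number of rises was 301, and became 187 with a pseudocount of 64, 190 with a filter at the 60th percentile and 924 with a 1.5-fold minimum. The number of falls was 132, and became 226 with no filter and 501 with a 1.5-fold minimum. Between 3 weeks and later, a 1.5-fold minimum gave 885 higher and 906 lower. Leaving out each array in turn gave 296 to 319 rises, 134 to 149 falls, and, of genes that differed at 3 weeks from later, 292 to 306 higher and 298 to 326 lower. With the replicate number as a block, 301 genes rose and 133 fell, 432 of them shared with the fit without it, and the comparison with later times gave 294 and 300. A lower fold minimum, and the number of genes a filter keeps, change these counts by construction, and the cause of the other shifts was not tested. The arrays are technical replicates of unstated animals, so that no difference between animals could be measured. Genes near background have an uncertain size of change, and genes at the bright end may be compressed.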
